A study of Homo sapiens with 27 samples.

Results

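The data compare 2 drugs that act on neighbouring steps of the same pathway, vemurafenib and trametinib, in the control cells of the study. The members are the 6 libraries, of 27 in all, that come from A375 cells carrying a guide RNA against GFP, a jellyfish gene absent from human cells, and treated for 24 h with 1 µM vemurafenib (3 libraries) or 20 nM trametinib (3 libraries). They were chosen by these labels and not by any measured value. A375 is an established human melanoma line whose BRAF kinase carries an activating mutation, and the control cells carry the genotype label WT. All groups share the line, the medium with 10% FBS and the treatment time. Control cells in DMSO, the solvent (3 libraries), served as a reference level and took no part in any test given here, save 1 alternative fit of all 27 libraries. The 12 libraries of TADA2B knockout cells given the same drugs, made with guide 1 or guide 2 (3 libraries per guide and drug), were used for 1 comparison at the end. Nothing in the labels tells separate cultures from repeat preparations of one culture within a group. The p-values therefore weigh a difference only against the spread among these libraries.

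In the MAPK cascade, receptors activate RAS, RAS activates the RAF kinases, RAF phosphorylates MEK, and MEK phosphorylates ERK, which drives growth genes and, through them, its own inhibitors. Mutant BRAF keeps the cascade on in melanoma. Vemurafenib binds mutant BRAF, and trametinib binds MEK, the next kinase down, at a site other than its ATP pocket. The drugs are unrelated in structure and were each used at 1 dose, and those doses differ, so the values below describe these treatments side by side and not the drugs at matched doses. The labels and title do not state why both drugs were used.

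Library totals lay between 73164161 and 86284221 counts, and mitochondrially encoded genes took between 2.05% and 2.38% of them. On a principal component analysis of the 6 libraries, component 1 (36.3% of the variance) set the drugs apart, and component 2 (17.4%) set trametinib replicate 3 (31.4) apart from trametinib replicates 1 and 2 (-15.0 and -16.1). SOX10 and MITF are transcription factors of the melanocyte lineage that the label leads one to look for. They averaged 1081 and 147 CPM with vemurafenib and 1035 and 139 CPM with trametinib. CPM is a gene's read count relative to the scaled size of its library. On the same list of 7 lineage genes, S100B averaged 94.9 CPM with vemurafenib and 64.9 CPM with trametinib, and PAX3 27.5 and 22.8 CPM. MLANA (1.68 and 1.83 CPM), PMEL (1.81 and 2.02 CPM) and TYR (0.179 and 0.133 CPM) were low with either drug. The summed level of the 15 keratinocyte markers was 97.7 to 98.8 CPM with vemurafenib and 90.2 to 92.1 CPM with trametinib. Most of it was KRT10 (means of 37.6 and 39.9 CPM), LAMB3 (34.4 and 20.6 CPM) and DSC3 (15.3 and 15.5 CPM), and KRT1 and IVL were at 0. Their part in the results was not tested. Of the 14 leukocyte markers 3 averaged over 1 CPM. These were LYZ (7.28 CPM with vemurafenib and 4.76 with trametinib), ITGAX (6.69 and 4.33 CPM) and PTPRC (1.57 and 2.65 CPM). CD2 was at 0, and CD3D, CD3E and MS4A1 had at most 1 count in a library.

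Of 22210 genes tested, 4027 (18.1%) differed between the drugs at an adjusted p under 0.05 by edgeR's quasi-likelihood test. With vemurafenib 1961 genes (8.83%) were higher and 2066 (9.30%) lower, and the median log2 fold change over all genes tested was -0.00. Most differences were small. Only 285 called genes (1.28%) differed at least 2-fold, 145 higher and 140 lower with vemurafenib. In 3865 of the 4027 called genes all 3 libraries of one drug lay on one side of the 3 of the other. The calls were made on the same 6 libraries, so this separation is no separate support for them. Its share over all genes tested was not counted. Below, "called" means an adjusted p under 0.05 over all genes tested, and "higher" and "lower" refer to vemurafenib. Every log2 value is vemurafenib minus trametinib with its standard error. The count of called genes in any list is to be read beside the 18.1% called over all genes.

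**Figure D1:**
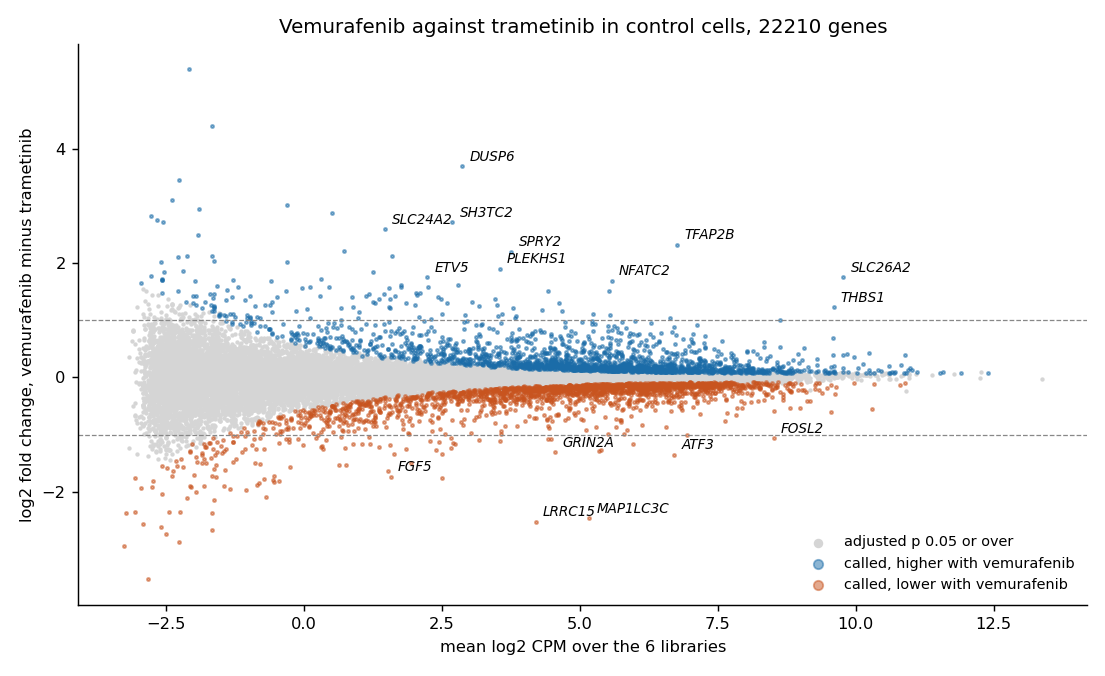
Log2 fold change, vemurafenib minus trametinib (vertical axis), against the mean log2 CPM over the 6 control libraries (horizontal axis), 1 point per gene for 22210 genes. Blue points were called higher with vemurafenib, orange points lower, grey points were not called, and dashed lines mark 2-fold. DUSP6 (3.71) and SLC26A2 (1.75) lie far above the bulk of genes, and LRRC15 (-2.52) and MAP1LC3C (-2.46) far below it.

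The level in DMSO places most of the 2-fold genes. Of the 145 that were higher with vemurafenib, 89 lay below DMSO with both drugs, 21 above DMSO with both, and 35 had the drugs on either side of it. Of the 140 lower genes, 112 lay above DMSO with both drugs, 7 below with both, and 21 on either side. In the 89 and the 112 genes the trametinib level is by construction the farther from DMSO, and in the 21 and the 7 the vemurafenib level. Of all 1961 genes called higher, 1207 lay below DMSO with both drugs and 541 above it with both. Of all 2066 called lower, 1312 lay above it with both and 485 below it with both. Vemurafenib is thus the farther from DMSO in the 541 and the 485. No such count was made over all genes tested. These counts are a description of levels, chosen after the data had been seen, and carry no test.

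The phosphatases that remove phosphate from MAP kinases moved in both directions. Many of these dual-specificity phosphatases are themselves made when MAP kinases are active, and so brake the pathway that induced them. All 11 on the list passed the filter on low counts, 3 were called higher and 4 lower, and their median was 0.00, a value whose sign changed in 5 of 14 alternative settings. DUSP6 (ENSG00000139318, chromosome 12, 89347232 to 89353271, minus strand, hg38), which acts on ERK in the cytoplasm, stood at 13.2, 13.2 and 14.4 CPM with vemurafenib and 1.07, 0.947 and 1.11 CPM with trametinib. The groups did not overlap, and the lowest vemurafenib library lay far above the highest trametinib library. The difference was 13.1-fold (log2 3.71 ± 0.10, adjusted p = 8.1e-23), the largest of any gene named here. On a scale that takes in the 3 DMSO libraries, on which all DMSO levels and percentages are given, DUSP6 averaged 141 CPM in DMSO, so 9.19% of that level was left with vemurafenib and 0.704% with trametinib.

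DUSP4, a nuclear phosphatase of ERK and JNK that ERK induces, stood at 138, 131 and 133 CPM with vemurafenib and 64.2, 66.4 and 64.8 CPM with trametinib. Every vemurafenib library was again the higher (log2 1.04 ± 0.03, adjusted p = 1.1e-20). DUSP7, a relative of DUSP6, was called higher by less (log2 0.32 ± 0.05, adjusted p = 4.1e-06). DUSP5, a nuclear phosphatase specific for ERK, went the other way. It stood at 14.9, 14.2 and 14.4 CPM with vemurafenib and 18.5, 18.8 and 19.2 CPM with trametinib, without overlap (log2 -0.37 ± 0.06, adjusted p = 5.3e-06), against 35.9 CPM in DMSO. DUSP8, DUSP10 and DUSP16, which prefer the stress kinases JNK and p38, were lower. DUSP10 stood at 93.4, 91.8 and 92.1 CPM with vemurafenib and 140.0, 137 and 136 CPM with trametinib, with every trametinib library above every vemurafenib library (log2 -0.57 ± 0.03, adjusted p = 3.5e-15), and both drugs lay above the 41.4 CPM of DMSO. For DUSP16 the difference was smaller (log2 -0.27 ± 0.04, adjusted p = 8.9e-07). DUSP8 was called (log2 -0.52 ± 0.18, adjusted p = 0.039), but that call was lost on leaving out any 1 of the 6 libraries (adjusted p up to 0.17 over the settings tried). DUSP1, DUSP2, DUSP9 and DUSP14 had log2 values between -0.08 and 0.28 and did not pass the test.

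Sprouty and SPRED proteins, which block the step from receptors to RAS and RAF, were higher as a group. Of 7 members, all tested, 6 were called higher and none lower, with a median of 0.93. SPRY2 stood at 21.8, 23.4 and 21.6 CPM with vemurafenib and 5.30, 4.46 and 4.76 CPM with trametinib. The groups lay wide apart, and the difference was 4.60-fold (log2 2.20 ± 0.07, adjusted p = 7.8e-21). SPRY4 stood at 4.07, 4.35 and 4.26 CPM with vemurafenib and 1.47, 1.82 and 1.59 CPM with trametinib (log2 1.38 ± 0.12, adjusted p = 2.1e-10), and both groups were a trace of the 427 CPM of DMSO, 0.945% and 0.364%. SPRY1 was near the lower end of detection, at 0.434, 0.521 and 0.479 CPM with vemurafenib and 0.145, 0.120 and 0.0534 CPM with trametinib, and was called higher (log2 2.13 ± 0.40, adjusted p = 0.00015). The 3 SPRED genes kept far more of their DMSO level. SPRED2 stood at 52.1, 48.2 and 51.8 CPM with vemurafenib and 27.7, 25.6 and 26.3 CPM with trametinib (log2 0.93 ± 0.04, adjusted p = 1.4e-16), or 47.1% and 24.7% of DMSO. SPRED1 and SPRED3 had log2 values of 0.74 and 0.78, without overlap between the drugs. SPRY3 was the exception at 5.43, 5.90 and 5.197 CPM with vemurafenib and 6.86, 7.07 and 5.68 CPM with trametinib, where the groups overlapped (log2 -0.25 ± 0.09, adjusted p = 0.058). It was called lower without vemurafenib replicate 2 or trametinib replicate 3, and at the edge of the threshold with no filter on low counts or with at least 1 CPM asked for in 3 libraries.

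**Figure D2:**
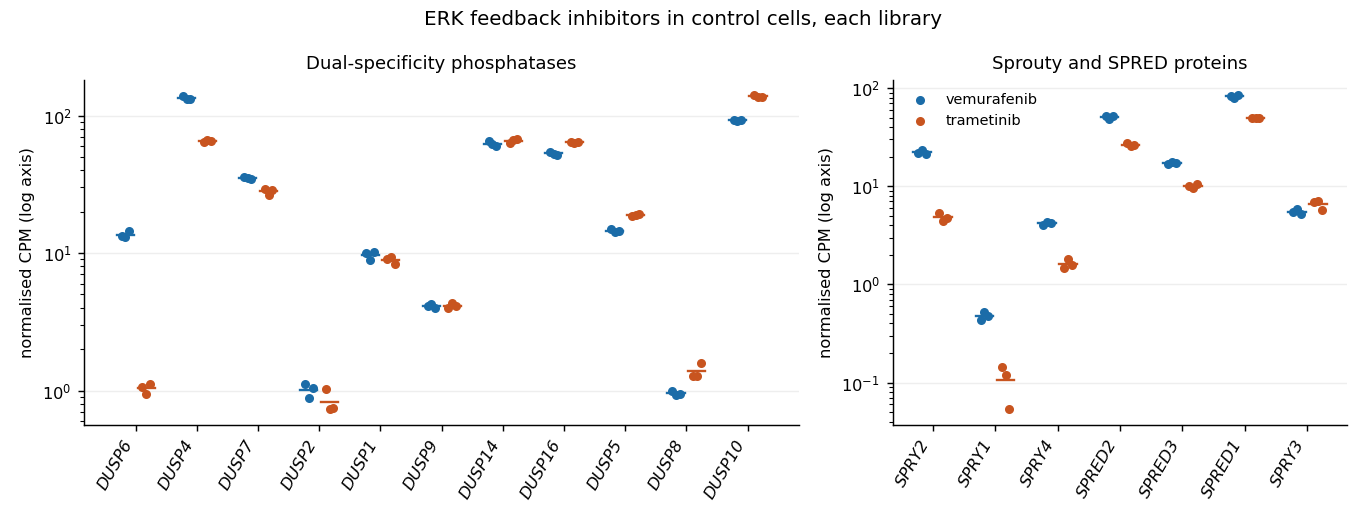
Normalised CPM on a log axis for the 11 dual-specificity phosphatases (left) and the 7 Sprouty and SPRED genes (right), ordered by their log2 fold change. Each point is 1 library, each short line a mean of 3. The points of DUSP6, DUSP4, SPRY2, SPRY4 and the SPRED genes are higher with vemurafenib (blue) and those of DUSP10, DUSP16 and DUSP5 higher with trametinib (orange).

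Promoter letters are shown for DUSP6 and SPRY2, the phosphatase and the Sprouty gene with the largest differences among members at 1 CPM or more. The RefSeq windows (GRCh38.p14) run from 250 bases before to 50 after a start of the gene, each 300 bases on the minus strand. They are chr12:89352452-89352751 for DUSP6 and chr13:80341077-80341376 for SPRY2, and capitals mark the core CCGGAA that ETS transcription factors bind. The DUSP6 window lies inside the gene bounds given above, so the start used is not the outermost one.
DUSP6: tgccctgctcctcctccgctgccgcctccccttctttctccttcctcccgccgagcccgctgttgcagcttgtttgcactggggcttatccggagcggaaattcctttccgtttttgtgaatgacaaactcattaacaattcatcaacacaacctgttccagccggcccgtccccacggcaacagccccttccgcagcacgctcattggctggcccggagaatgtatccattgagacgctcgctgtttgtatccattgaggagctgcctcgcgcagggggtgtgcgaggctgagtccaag
SPRY2: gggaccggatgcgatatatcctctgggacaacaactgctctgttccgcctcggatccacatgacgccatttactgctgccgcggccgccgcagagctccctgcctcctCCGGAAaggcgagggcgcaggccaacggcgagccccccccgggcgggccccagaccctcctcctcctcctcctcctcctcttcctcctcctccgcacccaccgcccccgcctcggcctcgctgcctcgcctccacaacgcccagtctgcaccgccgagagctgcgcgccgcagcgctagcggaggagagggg
Both strands were searched for the ETS core CCGGAA and for TGACTCA, the site of AP-1, and the motifs do not overlap. The ETS core was in 17.2% and the AP-1 site in 4.95% of 35116 RefSeq promoters of the same length. For the list members only the first window listed per gene was searched, while these shares cover all windows. Any other start of a gene was not searched. Among the 13 called members of both lists 11 are in the table, and in these windows SPRY2 holds the ETS core and SPRED3 the AP-1 site. DUSP4 and DUSP5 are the others. These matches describe letters in a window and were not tied to any binding measured here.

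Transcription factors of the ETS and EGR families and immediate early genes moved in both directions. Of the 16 genes on the list of ETS factors, EGR factors and immediate early genes 15 were tested, 7 were called higher and 4 lower, with a median of 0.13. ETV5, an ETS factor of the PEA3 group, stood at 7.17, 7.78 and 6.87 CPM with vemurafenib and 2.10, 2.09 and 2.28 CPM with trametinib. No libraries overlapped, and the difference was 3.37-fold (log2 1.75 ± 0.10, adjusted p = 1.2e-14), with 3.99% of the DMSO level left with vemurafenib and 1.18% with trametinib. ETV4 (log2 0.97, adjusted p = 7.4e-07) and ETV1 (log2 0.70, adjusted p = 3.2e-14) of the same group were higher too, as was ELK3 (log2 0.71, adjusted p = 6e-14). EGR2 had the largest log2 value of the list (2.03) at 0.293, 0.137 and 0.240 CPM with vemurafenib and 0.0485, 0.0480 and 0.0668 CPM with trametinib, and its call was lost without vemurafenib replicate 1 (adjusted p = 0.067). ETS1 (log2 -0.22, adjusted p = 4.1e-07), IER5 (log2 -0.31, adjusted p = 6.5e-06), EGR3 and IER2 were lower.

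Among 24 other ERK output genes, all tested, 14 were called higher and 6 lower (median 0.32). MYC, the growth factor-induced transcription factor, stood at 3.73, 3.47 and 2.94 CPM with vemurafenib and 1.38, 1.44 and 1.24 CPM with trametinib (log2 1.32 ± 0.14, adjusted p = 6e-09), without overlap. TRIB2, a pseudokinase, stood at 68.6, 66.4 and 71.4 CPM with vemurafenib and 25.1, 23.4 and 23.4 CPM with trametinib (log2 1.52 ± 0.04, adjusted p = 2.9e-22). PHLDA1 was 2.01-fold higher (log2 1.01 ± 0.03, adjusted p = 4.2e-19), and the neuropeptide precursor VGF (log2 0.78, adjusted p = 4.9e-12) and the kinase EPHA2 (log2 0.56, adjusted p = 1.2e-11) followed. The 6 lower genes included TNFRSF12A, the receptor of the cytokine TWEAK (log2 -0.75, adjusted p = 2.1e-12), KLF5 (log2 -0.53, adjusted p = 3.9e-10) and TFPI2, a protease inhibitor (log2 -0.43, adjusted p = 0.00018). CCND1, cyclin D1, which ERK output drives into the cell cycle, stood at 32.5, 30.2 and 30.7 CPM with vemurafenib and 29.4, 27.4 and 28.4 CPM with trametinib. The groups did not overlap but lay close, and the call (log2 0.13 ± 0.05, adjusted p = 0.044) was lost when vemurafenib replicate 1 or 3 or any 1 trametinib library was left out, and with no filter on low counts. Both levels lay far below the 409 CPM of DMSO.

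AP-1 factors were more often lower than higher with vemurafenib. AP-1 is a dimer of FOS, JUN, ATF and MAF family proteins that answers growth and stress signals. Of 15 genes 14 were tested, 7 were called lower and 1 higher, with a median of -0.28, the lowest of the 33 lists that are not cell type markers. ATF3, a stress-induced member, stood at 59.97, 59.5 and 57.5 CPM with vemurafenib and 154, 149 and 149.8 CPM with trametinib (log2 -1.36 ± 0.03, adjusted p = 9.1e-24), with no overlap, against 2.56 CPM in DMSO. FOSL2 stood at 240.3, 235 and 233 CPM with vemurafenib and 495, 487 and 501 CPM with trametinib (log2 -1.07 ± 0.03, adjusted p = 5.9e-23), against 29.03 CPM in DMSO. FOS (log2 -1.29 ± 0.05, adjusted p = 1.2e-19) and JUN (log2 -0.54 ± 0.03, adjusted p = 4e-15) were lower in the same way. All 4 genes were above DMSO with both drugs, and farther above it with trametinib. FOSL1, which belongs to the same family and to the ERK output list, was the exception. It stood at 12.7, 12.6 and 12.2 CPM with vemurafenib and 9.30, 8.57 and 9.40 CPM with trametinib (log2 0.46 ± 0.07, adjusted p = 3.9e-06), and both levels were below the 132 CPM of DMSO. JUNB (log2 -0.23, adjusted p = 5e-05), MAF (log2 -0.34, adjusted p = 5.9e-10) and MAFF (log2 -0.48, adjusted p = 0.0015) were lower, and FOSB and JUND were not called.

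**Figure D3:**
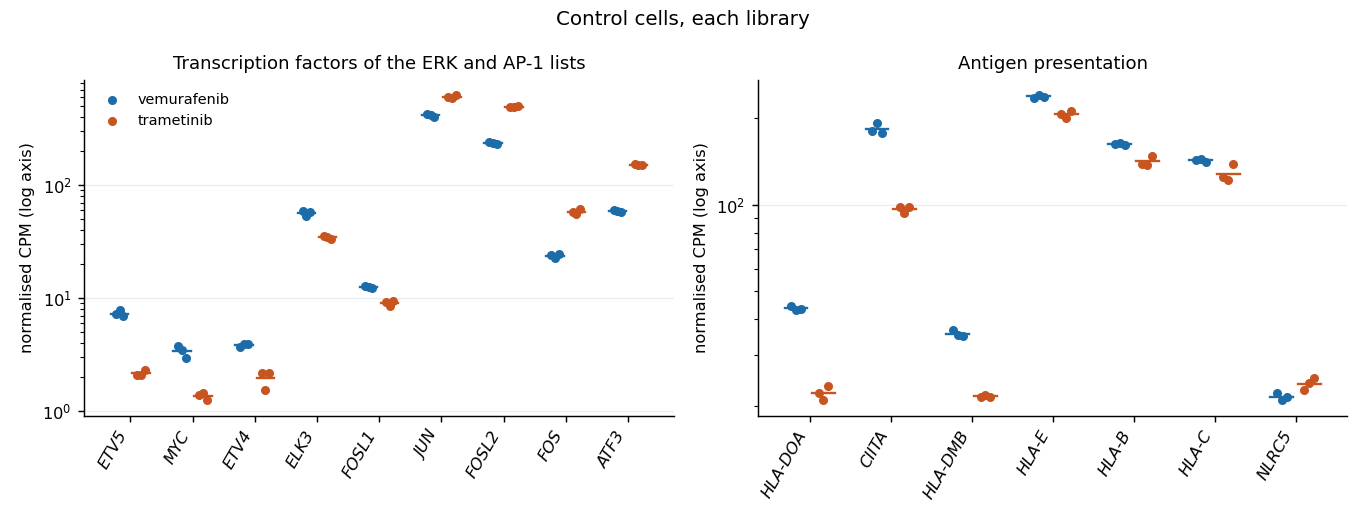
Normalised CPM on a log axis in each of the 6 control libraries for 9 transcription factors (left) and 7 genes of antigen presentation (right). Each point is 1 library, each short line a mean of 3. ETV5, MYC, ETV4, ELK3 and FOSL1 are higher with vemurafenib (blue), JUN, FOSL2, FOS and ATF3 with trametinib (orange), and CIITA (0.92) and HLA-DOA (0.98) differ more than HLA-B (0.20) or HLA-C (0.15).

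The kinases and adaptors of the cascade itself mostly differed by small amounts, in both directions. Of 28 members, all tested, 6 were called higher and 9 lower (median -0.04). The called share of the list was 53.6%, beside 18.1% of all genes. BRAF (log2 -0.08, adjusted p = 0.091), the target of vemurafenib, and MAP2K1 (log2 -0.06, adjusted p = 0.3), which encodes MEK1, did not pass the test, and MAP2K2, which encodes MEK2, was called higher by 0.10 (adjusted p = 0.033). The largest difference was RASGRP3, an exchange factor that loads RAS with GTP, at 5.198, 6.49 and 5.58 CPM with vemurafenib and 2.75, 2.51 and 3.03 CPM with trametinib (log2 1.06 ± 0.11, adjusted p = 5.8e-09). Its relative RASGRP1 was lower (log2 -0.37 ± 0.07, adjusted p = 0.00014).

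Receptors and their ligands moved in both directions. Of 28 receptor tyrosine kinases 25 were tested, 5 were called higher and 8 lower (median -0.06). FGFR2, a receptor of fibroblast growth factors, stood at 2.82, 3.40 and 2.93 CPM with vemurafenib and 7.38, 6.68 and 8.05 CPM with trametinib (log2 -1.28 ± 0.10, adjusted p = 1.4e-11), with no overlap. NTRK2, the receptor of BDNF, was lower (log2 -0.76 ± 0.06, adjusted p = 5.1e-11). EGFR (log2 0.52 ± 0.11, adjusted p = 0.00046) and KDR (log2 0.53 ± 0.07, adjusted p = 2.6e-07) were higher, and AXL was lower by little (log2 -0.16 ± 0.03, adjusted p = 0.00012). Among 29 ligands 22 were tested, 8 were called higher and 3 lower. TGFA, a ligand of EGFR, stood at 64.5, 61.8 and 65.4 CPM with vemurafenib and 34.3, 34.1 and 34.7 CPM with trametinib (log2 0.90 ± 0.04, adjusted p = 1.8e-17), and both levels were a small part of the 849.7 CPM of DMSO. VEGFC (log2 0.64 ± 0.08, adjusted p = 2e-07), HBEGF (log2 0.44, adjusted p = 0.00019) and FGF2 (log2 0.41, adjusted p = 0.00016) were higher as well. FGF5, a fibroblast growth factor, stood at 1.09, 1.44 and 1.56 CPM with vemurafenib and 4.92, 4.42 and 4.25 CPM with trametinib (log2 -1.74 ± 0.13, adjusted p = 7.5e-12), and VEGFA was lower too (log2 -0.41, adjusted p = 2.3e-07).

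Outside these lists the largest differences fell on genes of varied function. SLC24A2, a sodium, calcium and potassium exchanger, stood at 4.59, 5.46 and 4.200 CPM with vemurafenib and 0.509, 0.779 and 1.08 CPM with trametinib (log2 2.59 ± 0.17, adjusted p = 9.4e-12). SH3TC2, an endosomal protein of Schwann cells, stood at 10.6, 11.4 and 11.6 CPM with vemurafenib and 2.02, 1.28 and 1.78 CPM with trametinib (log2 2.73 ± 0.11, adjusted p = 1e-17). In neither gene did the drugs overlap. NFATC2, a transcription factor activated by calcium signalling, stood at 72.3, 73.3 and 73.5 CPM with vemurafenib and 21.9, 22.3 and 23.6 CPM with trametinib (log2 1.69 ± 0.04, adjusted p = 6.5e-24), below the 242 CPM of DMSO with both drugs. PLEKHS1, with a lipid-binding domain, stood at 18.4, 17.4 and 19.4 CPM with vemurafenib and 4.96, 4.74 and 5.04 CPM with trametinib (log2 1.91 ± 0.07, adjusted p = 2.8e-19), which was 364% of the DMSO level with vemurafenib and 96.9% with trametinib. TMEM171, C10orf90 and AMIGO2, an adhesion protein of neurons, were higher by 1.84, 1.62 and 1.62. Each of these 7 genes had all vemurafenib libraries above all trametinib libraries, as the rule for naming them asks.

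In the other direction, LRRC15 (ENSG00000172061, chromosome 3, 194355247 to 194369743, minus strand), a membrane protein with leucine-rich repeats, stood at 5.01, 6.36 and 5.01 CPM with vemurafenib and 31.9, 30.9 and 31.1 CPM with trametinib. The trametinib libraries lay close together and far above the others (log2 -2.52 ± 0.07, adjusted p = 5e-22), and DMSO averaged 3.50 CPM. MAP1LC3C (ENSG00000197769, chromosome 1, 241995490 to 241999073, minus strand), which encodes a form of LC3 that coats autophagosomes, stood at 11.9, 10.4 and 10.8 CPM with vemurafenib and 61.3, 61.9 and 59.2 CPM with trametinib (log2 -2.46 ± 0.05, adjusted p = 9.2e-26), against 0.751 CPM in DMSO. The 35 tested genes of the lysosome and autophagy list, which holds MAP1LC3C, had a median of -0.04, with 3 higher and 8 lower. GRIN2A, a subunit of the NMDA glutamate receptor, stood at 13.2, 13.4 and 13.7 CPM with vemurafenib and 34.0, 32.0 and 33.6 CPM with trametinib (log2 -1.31 ± 0.05, adjusted p = 1.1e-18), and RGS8, which speeds up G protein shut-off, stood at 25.3, 24.9 and 23.3 CPM with vemurafenib and 60.2, 57.4 and 60.5 CPM with trametinib (log2 -1.28 ± 0.04, adjusted p = 3.8e-20). Both were near 0 in DMSO, at 0.120 and 1.10 CPM. CRYGS, a lens crystallin, the protease MMP28 and KCP were lower, with log2 values of -1.503, -1.33 and -1.33. GOLGA8S (-1.77) has near-identical copies that share reads, so its value is uncertain.

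Genes of melanoma states did not move as blocks. In melanomas, a melanocyte-like, a neural crest-like and an undifferentiated state are told apart by their genes. Of 24 neural crest-like genes 23 were tested, 8 were called higher and 3 lower (median 0.01). TFAP2B (ENSG00000008196, chromosome 6, 50818723 to 50847613, plus strand), a transcription factor of the AP-2 family, stood at 181, 186 and 179 CPM with vemurafenib and 36.6, 35.6 and 36.4 CPM with trametinib. The libraries of each drug lay close together and far from those of the other. The difference was 5.03-fold (log2 2.33 ± 0.03, adjusted p = 1.8e-29). RXRG, a retinoid receptor, stood at 19.0, 20.4 and 19.1 CPM with vemurafenib and 9.56, 8.59 and 9.54 CPM with trametinib (log2 1.08 ± 0.06, adjusted p = 1.6e-14). NGFR, a nerve growth factor receptor that marks the state, was lower, at 115, 114 and 113 CPM with vemurafenib and 173, 171 and 187 CPM with trametinib (log2 -0.64 ± 0.03, adjusted p = 1.4e-15). Of 24 melanocyte genes 21 were tested, 3 were called higher and 4 lower. MITF (log2 0.08 ± 0.03, adjusted p = 0.11), SOX10 (log2 0.06 ± 0.03, adjusted p = 0.18) and MLANA (log2 -0.12 ± 0.15, adjusted p = 0.66), an antigen of melanocytes, were not called, though SOX10 was called higher without trametinib replicate 3 (log2 0.10, adjusted p = 0.022). EDNRB, the endothelin receptor, stood at 58.4, 59.3 and 61.0 CPM with vemurafenib and 32.3, 33.0 and 30.4 CPM with trametinib (log2 0.90 ± 0.04, adjusted p = 5.7e-17), and CITED1, a transcriptional co-regulator, at 8.81, 7.83 and 7.09 CPM with vemurafenib and 15.2, 15.7 and 16.2 CPM with trametinib (log2 -0.99 ± 0.07, adjusted p = 2.8e-12). Of 24 undifferentiated state genes 23 were tested, 9 were called higher and 4 lower.

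MHC class II genes were higher as a group. These molecules present peptides to helper T cells, and in most cells CIITA is the master regulator that turns them on. Of 15 genes 14 were tested, 13 were called higher and none lower, with a median of 0.46. The called share of the list, 92.9%, stands beside 18.1% of all genes. CIITA stood at 181, 192 and 177 CPM with vemurafenib and 98.1, 93.5 and 98.3 CPM with trametinib (log2 0.92 ± 0.03, adjusted p = 3.1e-19), without overlap. HLA-DOA, which regulates peptide loading, stood at 44.5, 43.0 and 43.6 CPM with vemurafenib and 22.1, 21.0 and 23.5 CPM with trametinib (log2 0.98 ± 0.05, adjusted p = 1.4e-16), and HLA-DMB, which catalyses it, at 36.7, 35.2 and 35.0 CPM with vemurafenib and 21.4, 21.8 and 21.5 CPM with trametinib (log2 0.72 ± 0.05, adjusted p = 1.3e-13). HLA-DRA (log2 0.52, adjusted p = 1.2e-15), HLA-DPB1 (log2 0.48, adjusted p = 3.1e-12) and the invariant chain CD74 (log2 0.39, adjusted p = 6.6e-11) were higher by less. HLA-DRB1 and HLA-DRB5 (log2 0.42 and 0.43) are close copies whose reads may be shared. The call of HLA-DOB was lost without any 1 vemurafenib library and without trametinib replicate 1 or 3. CTSS, a protease of the same pathway, was not called (log2 -0.16, adjusted p = 0.18).

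Leukocytes carry MHC class II, so their markers are given beside it. The summed level of the 14 leukocyte markers was 15.7 to 16.9 CPM with vemurafenib and 11.6 to 13.0 CPM with trametinib, and 6 of the 14 passed the filter. LYZ (log2 0.61, adjusted p = 4.4e-06) and ITGAX (log2 0.63, adjusted p = 1.8e-06) were higher, while PTPRC, the pan-leukocyte antigen, was lower, at 1.61, 1.78 and 1.32 CPM with vemurafenib and 2.89, 2.47 and 2.59 CPM with trametinib (log2 -0.76 ± 0.14, adjusted p = 0.00016). The median of the 6 tested markers was 0.62. CD14 averaged 0.303 CPM with vemurafenib and 0.160 with trametinib, NKG7 0.235 and 0.0964, and CD68 0.128 and 0.157, and none of these was called. The T and B cell markers CD2, CD3D, CD3E and MS4A1 were at or near 0 in all 6 libraries. The part of leukocytes in the MHC class II difference was not tested. Of 20 MHC class I genes, all tested, 3 were called higher and 1 lower (median 0.01), a called share of 20.0% beside the 18.1% of all genes. The higher ones were led by HLA-E (log2 0.21 ± 0.03, adjusted p = 3.4e-06) and HLA-B (log2 0.20 ± 0.03, adjusted p = 1.4e-05). Of 36 interferon response genes, all tested, 8 were called higher and 8 lower (median -0.04), with BST2 (log2 0.61, adjusted p = 8.6e-05) and IFIT3 (log2 0.38, adjusted p = 3.2e-09) higher and MX1 (log2 -0.35, adjusted p = 0.00027) and CMPK2 (log2 -0.35, adjusted p = 0.0037) lower. Among 30 cytokine and NF-kB genes 21 were tested, 5 were called higher and 2 lower. IL1A, a cytokine of the interleukin 1 family, stood at 1.36, 1.70 and 1.10 CPM with vemurafenib and 4.02, 4.66 and 4.21 CPM with trametinib (log2 -1.64 ± 0.14, adjusted p = 6.1e-11), and IL11 was lower too (log2 -0.998 ± 0.12, adjusted p = 8.2e-08). CXCL8, a chemokine for neutrophils, was at trace levels of 0.422, 0.233 and 0.341 CPM with vemurafenib and 0.0242, 0.0480 and 0.160 CPM with trametinib (log2 2.12 ± 0.51, adjusted p = 0.0029), and its log2 value was 3.15 without trametinib replicate 3 and 1.69 without trametinib replicate 1.

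Extracellular matrix genes were more often higher. Of 41 genes 38 were tested, 20 were called higher and 4 lower (median 0.21). THBS1, a matrix glycoprotein that binds and activates TGF-beta, stood at 1059, 1097 and 1109 CPM with vemurafenib and 473, 458 and 458 CPM with trametinib (log2 1.23 ± 0.03, adjusted p = 1.3e-24), above the 611 CPM of DMSO with vemurafenib and below it with trametinib. HAPLN1, which links hyaluronan to proteoglycans, stood at 51.7, 48.2 and 54.7 CPM with vemurafenib and 23.9, 24.2 and 23.1 CPM with trametinib (log2 1.12 ± 0.05, adjusted p = 7.3e-18), and tenascin C, TNC, at 937, 974 and 932 CPM with vemurafenib and 602, 561 and 606 CPM with trametinib (log2 0.68 ± 0.03, adjusted p = 3.1e-17). VCAN (log2 0.81, adjusted p = 1.7e-06), LOXL3 (log2 0.60, adjusted p = 2.9e-15), COL12A1 (log2 0.39, adjusted p = 2.7e-08), TIMP1 (log2 0.48, adjusted p = 2.6e-12) and the laminin chains LAMA4, LAMB1 and LAMC1 (log2 0.32, 0.21 and 0.33) were higher. LRRC15, COL3A1 (log2 -1.51, adjusted p = 0.00016), COL1A1 (log2 -0.34, adjusted p = 0.0051) and THBS2 (log2 -0.21, adjusted p = 0.021) were the 4 lower genes. COL3A1 was low with either drug, at means of 0.285 CPM with vemurafenib and 0.819 CPM with trametinib. COL3A1 and COL1A1 are also fibroblast markers, of which 9 of 12 were tested, 2 were called higher and 3 lower. Their summed level was 164 to 170 CPM with vemurafenib and 139 to 150 CPM with trametinib, most of it PRRX1 (log2 0.62, adjusted p = 1.7e-14), and COL1A2, THY1 and TCF21 did not pass the filter. The part of other cells in these differences was not tested. Of 24 TGF-beta genes 23 were tested, 8 were called higher and 6 lower, with the integrin ITGB3 (log2 1.27 ± 0.07, adjusted p = 9.3e-15), the co-receptor TGFBR3 (log2 0.70 ± 0.08, adjusted p = 4e-08) and TGFBI (log2 0.47 ± 0.03, adjusted p = 8.9e-14) the largest of the higher ones.

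Genes of mitosis and of ribosome assembly were called higher more often than lower, by small amounts, and those of G1 control were not. Of 31 G2/M and mitosis genes, all tested, 14 were called higher and none lower (median 0.15). MKI67, a nuclear antigen of dividing cells, stood at 74.2, 83.3 and 75.8 CPM with vemurafenib and 61.5, 63.9 and 65.7 CPM with trametinib (log2 0.29 ± 0.04, adjusted p = 2.5e-06), and FOXM1, a transcription factor of mitotic genes, at 48.9, 49.6 and 46.6 CPM with vemurafenib and 38.0, 41.4 and 40.6 CPM with trametinib (log2 0.27 ± 0.04, adjusted p = 9.8e-06). Both drugs left little of the DMSO levels, 596 and 164 CPM. In bulk RNA, fewer cells of a type and less RNA per cell cannot be told apart. Of 36 S phase genes, all tested, 8 were called higher and 2 lower (median 0.06), a called share of 27.8% beside 18.1% of all genes. MCM3 (log2 0.25 ± 0.04, adjusted p = 1.8e-05), a subunit of the replicative helicase, and TK1 (log2 0.26 ± 0.05, adjusted p = 0.00027), a thymidine kinase, were higher, and GINS3 (log2 -0.61 ± 0.07, adjusted p = 1.5e-08) and CDC6 (log2 -0.39 ± 0.05, adjusted p = 7.8e-07) lower. Of 24 genes of G1 control 22 were tested, 3 were called higher and 6 lower. CCNE2, cyclin E2, stood at 3.33, 3.36 and 4.200 CPM with vemurafenib and 6.40, 5.78 and 6.61 CPM with trametinib (log2 -0.79 ± 0.10, adjusted p = 4.7e-07), and E2F7, a repressor of E2F targets, was lower (log2 -0.64 ± 0.05, adjusted p = 6.4e-11). Of 40 MYC target and ribosome biogenesis genes, all tested, 24 were called higher and 1 lower (median 0.12), with NOP16 (log2 0.34, adjusted p = 7.4e-05) and MYBBP1A (log2 0.30, adjusted p = 3.4e-07) after MYC itself.

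Transport, stress and survival genes split gene by gene. SLC26A2, a sulfate transporter, stood at 1353, 1296 and 1417 CPM with vemurafenib and 417, 401 and 387 CPM with trametinib (log2 1.75 ± 0.03, adjusted p = 2.8e-25), and DMSO averaged 1433 CPM, so vemurafenib left 90.2% of that level and trametinib 26.7%. SLC1A3, a glutamate transporter, was higher (log2 1.31 ± 0.11, adjusted p = 6.4e-11), and both chains of an amino acid exchanger were lower, SLC7A5 at 593, 604 and 595 CPM with vemurafenib and 910.0, 886 and 923 CPM with trametinib (log2 -0.60 ± 0.03, adjusted p = 3.5e-17) and SLC3A2 with a log2 value of -0.45. Of 30 genes of the ATF4 and unfolded protein response 8 were called higher and 6 lower, and of 30 of glycolysis and hypoxia 6 and 6, all tested in both lists. The glucose transporter SLC2A3 (log2 0.82 ± 0.04, adjusted p = 7.4e-16) and the glycolysis regulator PFKFB3 (log2 0.56 ± 0.04, adjusted p = 1.2e-13) were higher, and NDRG1 (log2 -0.43 ± 0.03, adjusted p = 3.8e-12) was lower. Among 17 BCL2 family genes 16 were tested, with BCL2 itself higher (log2 0.50 ± 0.11, adjusted p = 0.0006) and BCL2A1 (log2 -0.61 ± 0.08, adjusted p = 2.1e-07) and HRK (log2 -0.43 ± 0.06, adjusted p = 5.6e-07) lower. Of 24 p53 targets 3 were called higher and 2 lower, a called share of 20.8%, near the 18.1% of all genes. Of 26 cholesterol synthesis genes 25 were tested, with 7 called higher and 3 lower (40.0%). Of 26 SAGA and ATAC genes, all tested, 2 were called, both higher, a share of 7.69% that is below that of all genes. KAT2B, an acetyltransferase of these complexes, stood at 401, 379.7 and 392 CPM with vemurafenib and 260.4, 248 and 250.2 CPM with trametinib (log2 0.63 ± 0.03, adjusted p = 1.3e-16), against 52.0 CPM in DMSO, and its paralog KAT2A was higher by 0.17. TADA2B itself was not called (log2 0.07 ± 0.04, adjusted p = 0.26).

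**Figure D4:**
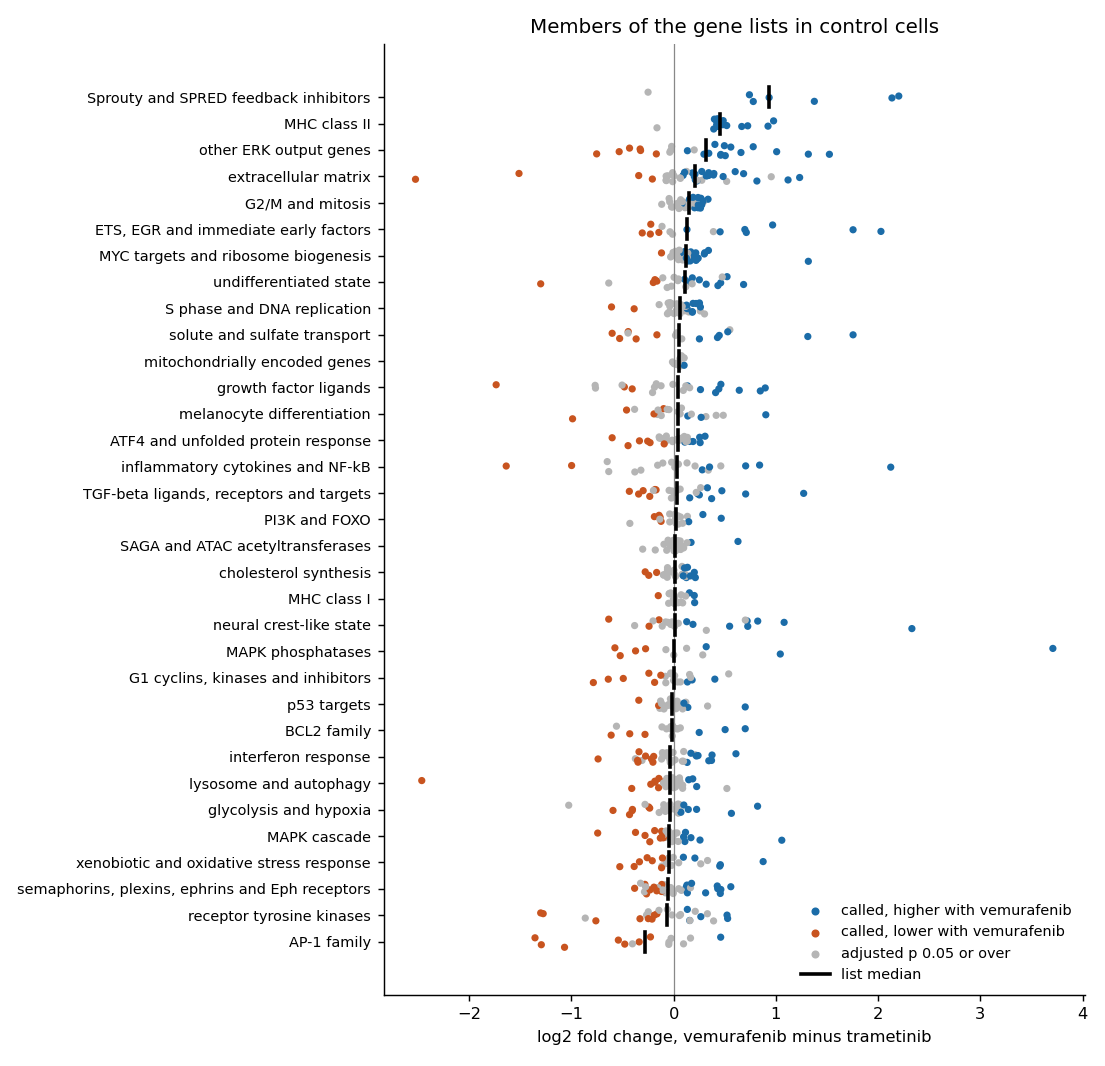
Log2 fold change, vemurafenib minus trametinib, of every tested member of 33 gene lists in control cells, lists ordered by their median (black bar). Each point is 1 gene, blue where called higher with vemurafenib, orange where called lower, grey where not called, and vertical scatter has no meaning. Sprouty and SPRED genes (median 0.93) and MHC class II (0.46) lie at the top, and the AP-1 family (-0.28) at the bottom.

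The remaining lists had calls in both directions, save the mitochondrially encoded genes. Of 20 PI3K and FOXO genes 3 were called higher and 4 lower, with FOXO1 (log2 0.47, adjusted p = 4.6e-10) among the higher ones. Of 25 genes of the xenobiotic and oxidative stress response 22 were tested, 5 were called higher and 7 lower, with the transporter ABCC3 (log2 0.87, adjusted p = 3.2e-07) and the aryl hydrocarbon receptor AHR (log2 0.46, adjusted p = 3.3e-11) higher and CYP1B1 (log2 -0.53, adjusted p = 5.1e-09) lower. Of 32 semaphorins, plexins, ephrins and Eph receptors 10 were called higher and 8 lower. Of 13 mitochondrially encoded genes 1 was called (7.69%), a share below the 18.1% of all genes. Of 15 keratinocyte markers 11 were tested, with 1 called higher, LAMB3 (log2 0.74, adjusted p = 5.2e-13), and 6 lower (median -0.46). Of 12 endothelial markers 8 were tested. The angiopoietin receptor TEK was lower (log2 -0.82, adjusted p = 0.00019), as was 1 other, and ROBO4 (log2 0.53, adjusted p = 0.00022), KDR and FLT1 (log2 0.50, adjusted p = 5.1e-06) were higher.

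The same difference was then measured in TADA2B knockout cells, whose 12 drug-treated libraries share none with the 6 above. TADA2B belongs to the SAGA complex, which acetylates histones. On the scale of these 18 libraries TADA2B averaged 44.9 CPM ± 1.44 with vemurafenib and 42.6 ± 1.15 with trametinib in control cells, 34.0 ± 1.13 and 36.7 ± 0.449 with guide 1, and 29.5 ± 0.916 and 30.4 ± 0.529 with guide 2 (SD, n = 3). Its transcript was thus lower but present in the knockout libraries. An edited gene can keep its transcript, so these levels do not check the genotype labels. In a fit of the 18 drug-treated libraries (24422 genes tested), the drugs differed in 3019 genes (12.4%) with guide 1 and in 2705 (11.1%) with guide 2. Of the 285 genes with a 2-fold difference in control cells, 167 were called in the same direction with guide 1, 138 with guide 2 and 125 with both, and 2 were called in the opposite direction with either. Of all 4027 called genes 1230 were called the same way with both guides, which is 30.5% of the control calls and 67.1% of the 1834 genes called the same way with both guides.

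The difference between the drugs itself differed by genotype in 1333 genes (5.46%), by the test of control minus the mean of both guides. Of these, 602 had the same sign in both genotypes and a larger difference in control cells. Another 185 had the same sign and a larger difference in knockout cells, and 546 had opposite signs. The signs are those of the estimates, whether or not the value in either genotype passed its test. The control value rests on fewer libraries than the mean of both guides, so the sizes are not equally precise. For DUSP6 the test of the genotypes did not pass. Its log2 difference was 3.89 with guide 1 and 3.15 with guide 2, against 3.71 in control cells in this fit (control minus knockout 0.19 ± 0.15, adjusted p = 0.6). Among the 11 phosphatases and the 7 Sprouty and SPRED genes, 5 of each list passed this test, and they were split. DUSP4, SPRY4 and the SPRED genes differed more between the drugs in knockout cells, and DUSP10, DUSP16 and SPRY2 more in control cells. DUSP2 and DUSP5 differed in sign, though DUSP2 was not called in control cells. The ETS factor ETV5 went from 1.76 in control to 2.70 in knockout cells (difference -0.95 ± 0.13, adjusted p = 2.2e-06), SPRY4 from 1.38 to 2.03 (-0.66 ± 0.15, adjusted p = 0.0057, but -0.44 and adjusted p = 0.20 against guide 1 alone), DUSP4 from 1.04 to 1.502 and SPRED3 from 0.78 to 1.45. For DUSP10 the value was -0.57 in control and -0.33 in knockout cells, and for DUSP16 it was -0.27 and -0.03. DUSP5 changed direction, from -0.37 to 0.51 (-0.88 ± 0.08, adjusted p = 3.9e-10), and was higher with vemurafenib under both guides (0.36 with guide 1 and 0.66 with guide 2). SPRY2 was the reverse, 2.20 in control and 1.49 in knockout cells (0.71 ± 0.09, adjusted p = 5.9e-07).

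The largest genotype differences were elsewhere. CDH11, an adhesion protein of mesenchymal cells, averaged 1.29 ± 0.158 CPM with vemurafenib and 1.14 ± 0.222 with trametinib in control cells (SD, n = 3), 4.47 ± 0.565 and 1.21 ± 0.124 with guide 1, and 5.74 ± 0.269 and 1.37 ± 0.0726 with guide 2. The drugs did not differ past the test in control cells (log2 0.18) and differed by 1.89 and 2.06 with the guides (control minus knockout -1.79 ± 0.18, adjusted p = 1.1e-08). RUBCNL, an autophagy regulator, had the largest value in the other direction, 2.89 in control and 1.29 in knockout cells (1.597 ± 0.26, adjusted p = 5.2e-05). SORL1, an endosomal sorting receptor, was higher with vemurafenib in control cells (1.31) and close to 0 in knockout cells (-0.09). SH3TC2, TFAP2B, PLEKHS1, NFATC2, LRRC15 and MAP1LC3C differed less between the drugs in knockout cells, but these were chosen for a large difference in control cells, which favours that order.

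**Figure D5:**
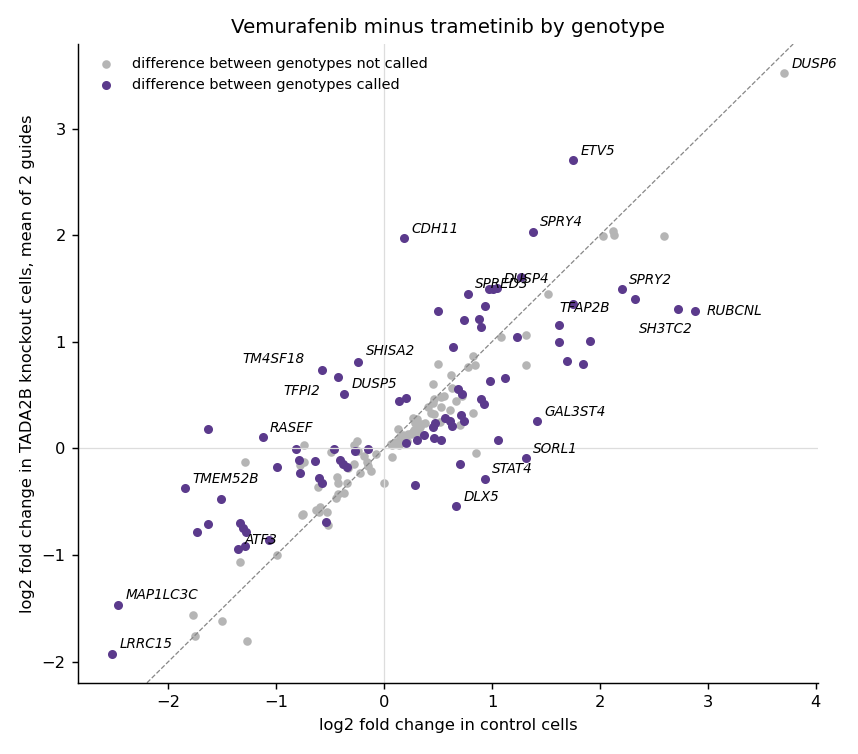
Log2 fold change, vemurafenib minus trametinib, of the named genes in control cells (horizontal axis) and in TADA2B knockout cells as the mean of 2 guides (vertical axis), from the fit of 18 libraries. Purple points passed the test of the difference between genotypes, grey points did not, and the dashed line marks equal values. ETV5, SPRY4 and CDH11 lie above the line, SH3TC2 and SPRY2 below it, and DUSP6 close to it.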

How the data were processed

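RNA was sequenced from A375 cells in 27 libraries, of which the 6 of control cells given vemurafenib or trametinib carry the comparison. The authors deposited 1 table of raw counts of reads per gene, and per the submitters' processing notes bcl2fastq, HISAT2 and HTSeq were used with hg38. The kit was stranded, per the labels. Whether counting used strand, and which annotation, is not given in the sources used. All 58721 identifiers were found in GENCODE 29. Genes were filtered with filterByExpr and tested with edgeR 4.0.16 (R 4.3.3), TMM and the quasi-likelihood test on the 6 libraries, with Benjamini-Hochberg adjustment over all genes tested, and every adjusted p in the text comes from edgeR's quasi-likelihood test unless named otherwise. In every pair of replicates counts differed by more than sampling noise (chi-square per degree of freedom 3.51 to 6.58). The knockout comparison used a fit of 18 libraries with 6 group means. DMSO levels are TMM CPM over 9 control libraries.

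The members and the 37 lists were chosen with earlier results of these data known. The rule for named genes took the 12 largest differences in each direction among called protein-coding genes averaging at least 1 log2-CPM with the libraries of the drugs apart, up to 4 called members with the largest change per list, every tested phosphatase, Sprouty and SPRED gene, a fixed set (DUSP6, SPRY4, CCND1, MYC, MITF, MLANA, SOX10, NGFR, AXL, EGFR and TADA2B), and the 6 largest genotype differences in each direction. Some genes it picks are not reported here, and further list members are named as examples. Alternatives were DESeq2 1.42.0 (size factors, Wald test), limma 3.58.1 (voom), other filters, glmTreat at 1.5-fold, the replicate block, fits of 18 or 27 libraries and leaving out each library. The tests were checked on simulated counts with 50 genes changed at each of 1.25-, 1.5-, 2- and 4-fold. In this order the control comparison recovered 82%, 80%, 76% and 90% of them, with 9 false calls. The test of the genotype difference recovered 54%, 68%, 52% and 68%, with 14 false calls. A gene that did not pass may therefore still differ.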

Additional observations from a re-analysis of the deposited data

Results flagged for a closer look

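The difference between the drugs itself differed between control and TADA2B knockout cells, by the test of control minus the mean of both guides, in a set of the named genes. The values are log2 vemurafenib minus trametinib in control cells minus that in knockout cells, and genes from the top of the control comparison were chosen for a large control value, which favours values of the control sign. The difference was higher with vemurafenib in both genotypes and larger in control cells for RUBCNL 1.597, SH3TC2 1.42, GAL3ST4 1.16, TMEM171 1.05, TFAP2B 0.93, PLEKHS1 0.90, NFATC2 0.88, SPRY2 0.71, C10orf90 0.62, AMIGO2 0.46 and SLC26A2 0.40. It was lower with vemurafenib in both genotypes and larger in size in control cells for DUSP16 -0.24, DUSP10 -0.25, FOS -0.38, ATF3 -0.41, RGS8 -0.49, GRIN2A -0.56, LRRC15 -0.60, MMP28 -0.63, IL1A -0.93, FGF5 -0.95, MAP1LC3C -0.997 and TMEM52B -1.47. It was higher with vemurafenib in both genotypes and larger in knockout cells for CCND1 -0.31, SPRED2 -0.40, DUSP4 -0.46, SPRED1 -0.46, SPRY4 -0.66, SPRED3 -0.67, ETV5 -0.95 and CDH11 -1.79.

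The direction differed between control cells and the mean of both guides for the rest. It was higher with vemurafenib in control cells and lower in knockout cells for SORL1 1.40, STAT4 1.22, DLX5 1.21 and DUSP2 0.63, and the reverse for DUSP5 -0.88, SHISA2 -1.05, TFPI2 -1.10, RASEF -1.23 and TM4SF18 -1.31. In single genotypes the values of DUSP2, CDH11 and SHISA2 in control cells, of SORL1 and DUSP16 with either guide, of STAT4, DLX5, RASEF and TMEM52B with guide 1, and of GAL3ST4, TMEM171, FGF5 and DUSP2 with guide 2 did not pass the test. RASEF with guide 1 had the sign of control cells (-0.05), and DUSP16 with guide 2 the opposite sign (0.02). Against guide 1 alone the calls of AMIGO2, C10orf90, DUSP10, FGF5, SPRY4 and TMEM171 were lost, against guide 2 alone that of DUSP2. The calls of AMIGO2 and DUSP2 were also lost on leaving out some single control libraries: vemurafenib replicate 1 or 3 or trametinib replicate 1 for AMIGO2 (smallest value 0.40), and vemurafenib replicate 1 or 3 or trametinib replicate 2 or 3 for DUSP2 (smallest value 0.54). Both calls were lost with limma voom as well.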

How the results depend on the processing

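In control cells the 4027 calls (1961 higher, 2066 lower) ranged over single left-out libraries from 2904 to 4482 (1441 to 2264 higher, 1463 to 2218 lower), with the lowest counts without trametinib replicate 1 and the highest without trametinib replicate 3. The 145 genes at least 2-fold higher ranged from 136 to 164 and the 140 lower from 126 to 158. DESeq2's Wald test gave 92 genes at least 2-fold lower. Asking for at least 1 CPM in 3 libraries, which tests fewer genes, left 74 at least 2-fold higher and 46 lower. Testing against a fold of 1.5 with glmTreat, which by construction calls fewer genes, left 232 (140 higher, 92 lower), of which 84 were at least 2-fold higher and 62 lower. The cause of the DESeq2 difference was not tested. With the replicate block 3432 genes were called in control cells and 1216 for the genotype difference. Libraries with the same number did not deviate together (correlations -0.006, 0.002 and -0.032 for numbers 1, 2 and 3), and not every library correlated best with its own number, so the number was not taken as a pairing. For the genotype difference, the 1333 calls (676 higher, 657 lower) ranged from 953 to 1539 (492 to 748 higher, 427 to 791 lower), and the 427 came without control vemurafenib replicate 2. Against guide 1 alone, with fewer libraries, 854 genes were called (392 higher). No called gene among those named changed sign in control cells in any of these settings, nor did a called genotype difference. DUSP9, which was not called, ranged from -0.03 to 0.04. Of the list medians, those of the melanocyte, cholesterol, G1, p53, MAPK phosphatase, fibroblast and endothelial lists, all between -0.06 and 0.04, changed sign in at least 2 of 14 settings. The counts of genes below or above DMSO with both drugs and of 2-fold genes called the same way with both guides were chosen after seeing the data. The first 2 stayed between 89 and 91 and between 111 and 115 without any 1 of 9 libraries, and the last, 125, was 89 with the stricter filter and 125 to 129 in the other settings. Genes with few counts, such as CXCL8, EGR2 and SPRY1, have the widest errors.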

Other observations

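Beyond protein-coding genes, 54 of 1645 tested lincRNAs were called higher with vemurafenib and 75 lower, and 43 of 1627 antisense genes were called higher and 40 lower. In both types the called share was below the 18.1% of all genes tested. Of 14882 protein-coding genes 1792 were called higher and 1868 lower. Whether the counting used strand is not given, and without strand reads of an antisense gene and of its partner cannot be told apart.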
